A study of Mus musculus with 8 samples.

Results

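The genes that drive and brake the first step of the cell cycle were examined in mouse mammary tumours with or without mutant huntingtin. They were chosen by symbol as the D cyclins Ccnd1, Ccnd2 and Ccnd3, the cyclin-dependent kinases Cdk4 and Cdk6, the inhibitors Cdkn1a, Cdkn1b and Cdkn2c, and the retinoblastoma gene Rb1, in all 9 of the 14860 genes that had a probe set with a single gene symbol. Each of the 9 had 1 such probe set, and no filter on low signal removed any of them. RNA was taken from 4 MMTV-PyVT/HdhQ111/Q111 and 4 MMTV-PyVT/HdhQ7/Q7 breast tumours of FVB/CD1 mice, 6 weeks after the tumours were detected, and each was measured once on an Affymetrix Mouse Exon 1.0 ST array. All mice of both groups carried the polyomavirus middle T antigen under the mouse mammary tumour virus promoter, which induces mammary adenocarcinoma. HdhQ111/Q111 mice carry, on both alleles of the huntingtin gene, an expanded repeat that encodes 111 glutamines, against 7 glutamines in HdhQ7/Q7 mice. Tumours appeared earlier in HdhQ111/Q111 mice, so that age and genotype cannot be told apart. The labels do not tie the tumours to separate mice, and p-values then measure only the spread between these samples.

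D cyclins are made in response to growth signals and bind CDK4 or CDK6. The active kinase phosphorylates the retinoblastoma protein, which otherwise holds E2F transcription factors inactive, and freed E2F turns on the genes of DNA replication. Inhibitors of the INK4 family, such as the product of Cdkn2c (p18), bind CDK4 and CDK6 directly, whereas the CIP/KIP proteins p21 (Cdkn1a) and p27 (Cdkn1b) chiefly restrain CDK2 and also help cyclin D assemble with its kinase. Cyclin D1 is needed for the growth of the mammary lobules in pregnancy, and it is a frequent driver in breast cancer.

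Array medians lay between 7.58 and 7.74 on the log2 scale, and the correlation between any pair of arrays, across probe sets, was 0.984 to 0.990. The huntingtin gene Htt, which carries the knock-in, read 8.65 to 8.92 in HdhQ111/Q111 tumours and 9.43 to 9.60 in HdhQ7/Q7 tumours (log2 difference -0.70, SE 0.08, limma adjusted p = 0.07). A log2 difference always stands for HdhQ111/Q111 minus HdhQ7/Q7. A probe set was called when it passed the thresholds of the study, that is 1.5-fold or more in either direction and 0.05 or less for the unadjusted p, which 1.36% of the 23332 probe sets (317) did. After Benjamini-Hochberg adjustment 0.0129% of probe sets (3) had a p under 0.05, and none of the 9 genes was among them, under any of the alternative settings either; 1 of the 9, Ccnd2, had an unadjusted limma p under 0.05, as did 7.88% of all probe sets (1839). Luminal epithelial markers were bright in both groups, with mean log2 signals over all tumours between 9.59 for Cldn7 and 12.70 for Epcam.

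For 6 of the 9 genes the RefSeq promoter table of build GRCm38.p6 held 9 promoters, and for Ccnd1, Ccnd2 and Rb1 it held none. The 250 bases before the start of Cdk4, chr10:127063285-127063534 on the plus strand, are shown because they hold 4 E-boxes, the word CACGTG that MYC and related factors can bind. Capitals mark the E-boxes, whose first bases lie 172, 118, 98 and 11 bases before the start.
Cdk4: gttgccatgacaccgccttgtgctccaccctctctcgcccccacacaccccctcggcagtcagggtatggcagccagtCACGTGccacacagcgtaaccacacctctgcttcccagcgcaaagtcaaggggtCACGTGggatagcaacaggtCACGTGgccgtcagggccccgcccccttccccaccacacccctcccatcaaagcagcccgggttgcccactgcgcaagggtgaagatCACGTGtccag
An E-box was present in 6.02% of the 32851 promoter windows of this length, and 0.0213% of them (7) held at least 4. The word reads the same on both strands. Cdk6 had 1 E-box. Cdkn1a had windows before different starts, and that at chr17:29093519-29093768 held no match to the p53 motif. The window before the other start, chr17:29090729-29090978 on the plus strand, is shown because it holds a match. Capitals mark the match, 51 to 32 bases before that start.
Cdkn1a: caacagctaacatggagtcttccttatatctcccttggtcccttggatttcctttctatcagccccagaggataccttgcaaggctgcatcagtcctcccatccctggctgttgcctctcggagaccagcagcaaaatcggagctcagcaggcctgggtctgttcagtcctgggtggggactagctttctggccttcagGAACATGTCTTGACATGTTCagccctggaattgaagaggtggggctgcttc
The search for the p53 motif allowed no spacer and 1 mismatch outside the core letters, and 15 of the 32851 windows (0.0457%) matched. It was set up after this promoter had been read. The E2F words TTTCCCGC, TTTCGCGC, TTTGCCGC and TTTGGCGC were searched on both strands. They were present in 1.86% of all windows (611) and in none of the 9 promoters of these genes. A match describes the letters of a window and is not a measured site.

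Of the 9 genes, Ccnd2 alone met the study's thresholds. It was higher in HdhQ111/Q111 tumours, where 1.02% of all probe sets (238) were called higher. The difference was above 0 for 8 of the 9 genes, as it was for 56.4% of all probe sets (13165), and its median was 0.14 over the 9 genes and 0.02 over all probe sets. Leaving out single tumours, 5 to 7 of the 9 were above 0, with 5 without HdhQ7/Q7 replicate 2. With each array centred on its median, or after quantile normalization, 6 of the 9 were above 0, since Ccnd1 and Ccnd3 changed sign, and 36.6% and 45.8% of all probe sets were. The genotypes did not overlap for 1 gene, Ccnd2, and for 4.43% of all probe sets (1033). The study drew Ccnd2 among its regulated genes from these same arrays, so its call here is not independent evidence. By immunoblotting, the study also reported a matching difference in cyclin D2 protein.

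**Figure D1:**
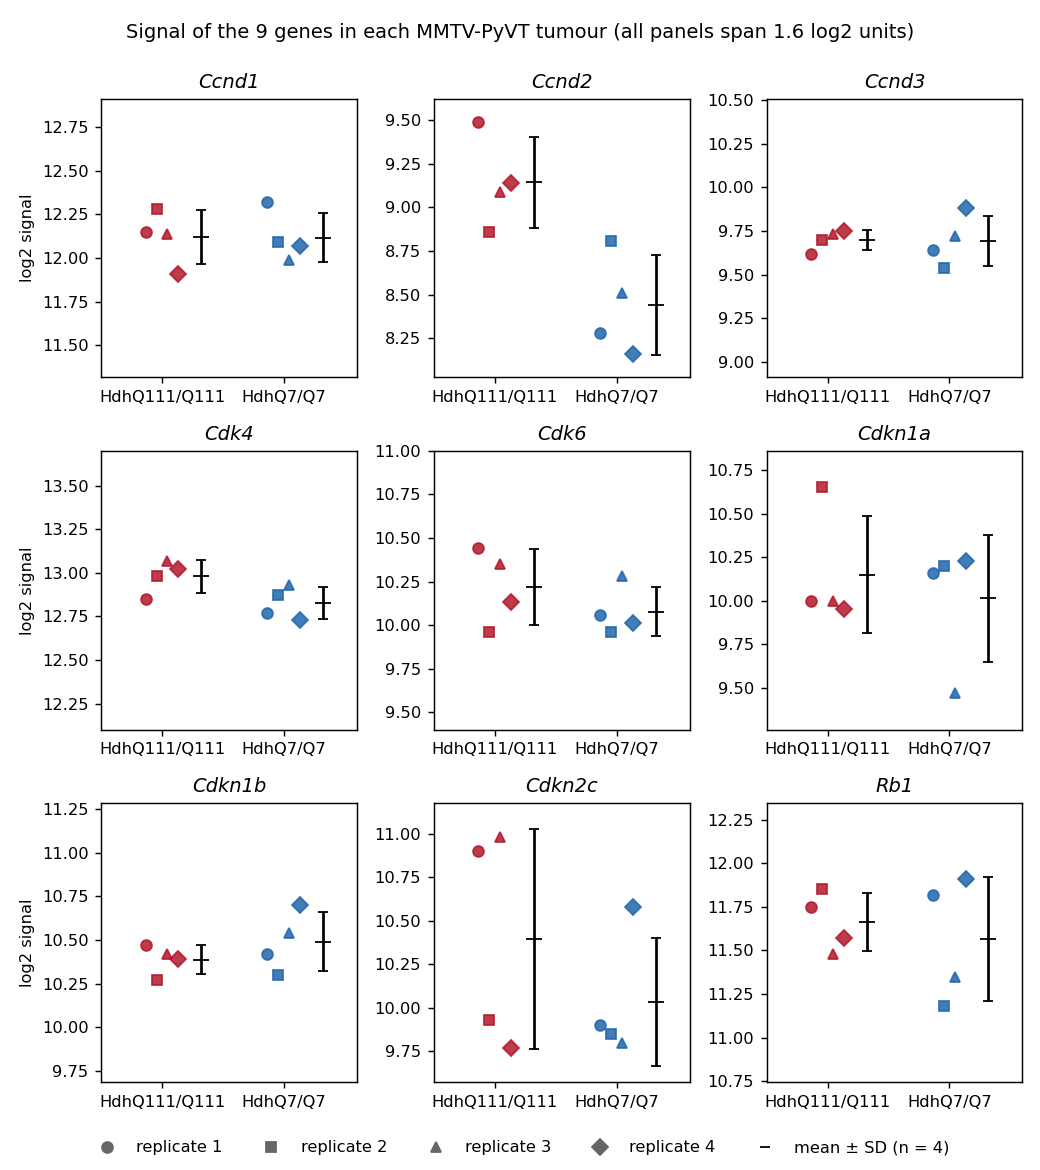
Log2 signal (y axis) of the 9 genes in each tumour, with HdhQ111/Q111 tumours in red at the left and HdhQ7/Q7 tumours in blue at the right of each panel; symbols give the replicate number and the bar is the mean ± SD (n = 4 each). Ccnd2 is the panel in which all red points, 8.86 to 9.49, lie above all blue points, 8.16 to 8.81, and Cdkn2c is the panel in which both groups split into a high and a low level.

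Ccnd2 encodes cyclin D2, the D cyclin best known from ovarian granulosa cells, B cells and the pancreatic islet. Its log2 signal was 9.49, 8.86, 9.09 and 9.14 in the HdhQ111/Q111 tumours (replicates 1 to 4), against 8.28, 8.81, 8.51 and 8.16 in the HdhQ7/Q7 tumours. Every HdhQ111/Q111 tumour was above every HdhQ7/Q7 tumour, but the replicate 2 tumours of both genotypes were close, at 8.86 in HdhQ111/Q111 and 8.81 in HdhQ7/Q7. The means were 9.15 ± 0.26 in HdhQ111/Q111 tumours and 8.44 ± 0.29 in HdhQ7/Q7 tumours (SD, n = 4 each), a log2 difference of 0.70 (SE 0.17, 95% interval 0.31 to 1.09) or 1.63-fold. Its unadjusted limma p was 0.00311 and its adjusted p 0.427, and a two-sided exact permutation test gave p = 0.0286, the smallest that 4 against 4 tumours allow. Ccnd2 met the study's thresholds under all 16 alternatives at the fold threshold of 1.5, with a log2 difference of 0.59 to 0.82 and an adjusted p of 0.31 to 0.763. At a fold threshold of 2 it did not.

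Ccnd1 encodes cyclin D1. It read 12.15, 12.28, 12.14 and 11.91 in HdhQ111/Q111 tumours, against 12.32, 12.09, 11.99 and 12.07 in HdhQ7/Q7 tumours. The groups overlapped throughout, with the lowest value in an HdhQ111/Q111 tumour and the highest in an HdhQ7/Q7 tumour. The means were 12.12 ± 0.15 and 12.12 ± 0.14 (HdhQ111/Q111 and HdhQ7/Q7, SD, n = 4 each), and the log2 difference was 0.00 (SE 0.10, 95% interval -0.23 to 0.24, limma adjusted p = 0.996).

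Ccnd3 encodes cyclin D3, known for its part in lymphocyte development. It read 9.62, 9.70, 9.73 and 9.75 in HdhQ111/Q111 tumours and 9.64, 9.54, 9.72 and 9.88 in HdhQ7/Q7 tumours. All HdhQ111/Q111 values lay inside the range of the HdhQ7/Q7 values. The log2 difference was 0.00 (SE 0.08, 95% interval -0.19 to 0.20, limma adjusted p = 0.994). A further probe set shared by Ccnd3 and its pseudogene Ccnd3-ps read 4.29 to 4.83 over the 8 tumours with a difference of 0.00, and it was not counted because it carries both symbols. For Ccnd1 and Ccnd3 the intervals end well inside the 1.5-fold threshold, whereas that of Ccnd2 crosses it.

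The contrast among the D cyclins can be read within each tumour, after each gene is centred on its own mean over the 8 tumours. Centred Ccnd2 minus centred Ccnd1 was 0.67, -0.10, 0.28 and 0.55 in HdhQ111/Q111 tumours and -0.71, 0.05, -0.15 and -0.58 in HdhQ7/Q7 tumours. Centred Ccnd2 minus centred Ccnd3 was 0.77, 0.06, 0.27 and 0.30 in HdhQ111/Q111 tumours and -0.46, 0.18, -0.30 and -0.82 in HdhQ7/Q7 tumours. In both contrasts the replicate 2 tumours were in the reverse order of the genotypes, so the groups overlapped. The difference between the genotypes was 0.70 on the log2 scale for both contrasts and was not tested.

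**Figure D2:**
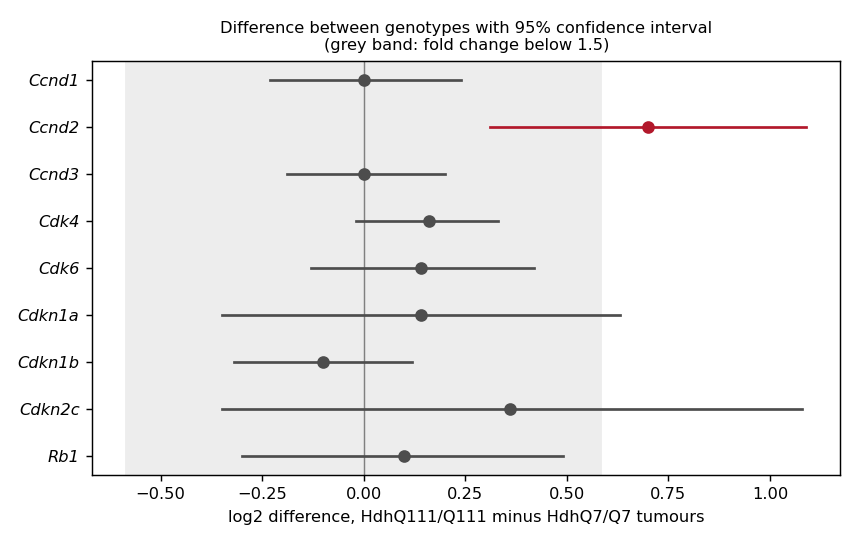
Log2 difference between genotypes (x axis, HdhQ111/Q111 minus HdhQ7/Q7, point) with its 95% interval from limma (line) for each of the 9 genes (n = 4 tumours each). The grey band spans fold changes below 1.5 in either direction, and the point of Ccnd2 at 0.70 (red) is outside it while its interval reaches down to 0.31.

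Among cell type markers, those of fibroblasts had the direction of Ccnd2, as had those of macrophages, adipocytes and basal cells. For reading the marker counts here and below, 56.4% of all probe sets had a difference above 0 and 1.02% were called higher. All 9 fibroblast markers were higher in HdhQ111/Q111 tumours, and 5 of them were called. Their median log2 difference was 0.82. Their summed signal was 7233 to 10419 in HdhQ111/Q111 tumours and 3456 to 5552 in HdhQ7/Q7 tumours, without overlap. The HdhQ7/Q7 replicate 4 tumour had the lowest fibroblast sum and the lowest Ccnd2, and the HdhQ111/Q111 replicate 1 tumour the highest of both. Within HdhQ111/Q111, however, the lowest sum was in replicate 3 (7233, against 7308 in replicate 2), and the lowest Ccnd2 in replicate 2. The mean of the fibroblast markers, each centred on its own mean over all tumours, gives each marker the same weight. It was 0.68, -0.03, 0.29 and 0.62 in HdhQ111/Q111 tumours and -0.43, -0.17, -0.2 and -0.75 in HdhQ7/Q7 tumours. This mean ranked all tumours in the same order as Ccnd2 did, and a link was not tested. The replicate 2 tumours, close in Ccnd2, had fibroblast sums of 7308 in HdhQ111/Q111 and 5552 in HdhQ7/Q7. The dimmest of these markers was Fap, at a mean log2 signal of 5.97. In bulk tumours, a difference in the number of cells of a type and a difference in RNA per cell cannot be told apart.

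Macrophage markers were also higher, 6 of 6, with 1 call, a median of 0.36 and sums of 3516 to 4029 in HdhQ111/Q111 tumours against 2982 to 3116 in HdhQ7/Q7 tumours. Adipocyte markers were higher in 4 of 4, with 1 call and a median of 1.38, but their sums, 406 to 3534 in HdhQ111/Q111 tumours and 370 to 603 in HdhQ7/Q7 tumours, overlapped. Basal and myoepithelial markers were higher in 6 of 6, with 2 calls, a median of 0.55 and overlapping sums of 2557 to 5811 in HdhQ111/Q111 tumours and 2176 to 3371 in HdhQ7/Q7 tumours. Of the T cell markers 2 of 6 were higher, and their sums, 461 to 514 in HdhQ111/Q111 tumours and 519 to 595 in HdhQ7/Q7 tumours, did not overlap. The T cell markers were dim, however, with mean log2 signals of 5.06 to 6.95, below the median of all values, 7.63. Luminal markers (3 of 7 higher, median -0.06), endothelial markers (3 of 6, median -0.01) and B cell markers (2 of 4, median -0.03) had no call, and their sums overlapped. The part of any of these cell types in the value of Ccnd2 was not tested.

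The 5 genes whose profile over the 8 tumours was nearest to that of Ccnd2, among 14859 genes each centred on its own mean, were Cilp, Col6a2, Ms4a4d, Nnmt and Lama2. Their root mean square difference from Ccnd2 was 0.116 to 0.157 on the log2 scale. Cilp read 8.65, 8.19, 8.28 and 8.49 in HdhQ111/Q111 tumours and 7.65, 8.16, 7.75 and 7.18 in HdhQ7/Q7 tumours. In Cilp, as in Ccnd2, the replicate 2 tumours of both genotypes were nearly level and HdhQ7/Q7 replicate 4 was the lowest of all.

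Cdk4, the kinase partner of the D cyclins in epithelium, read 12.85, 12.98, 13.07 and 13.02 in HdhQ111/Q111 tumours and 12.77, 12.87, 12.93 and 12.73 in HdhQ7/Q7 tumours. In 3 HdhQ111/Q111 tumours it was above every HdhQ7/Q7 tumour. The log2 difference was 0.16 (SE 0.08, 95% interval -0.02 to 0.33, 1.12-fold), with a limma adjusted p of 0.652 and an exact permutation p of 0.0857. The groups overlapped and the difference was smaller than the study's fold threshold.

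Cdk6, the related kinase prominent in blood cells, read 10.44, 9.96, 10.35 and 10.13 in HdhQ111/Q111 tumours and 10.06, 9.96, 10.28 and 10.01 in HdhQ7/Q7 tumours. Only replicates 1 and 3 of HdhQ111/Q111 were above every HdhQ7/Q7 tumour. The log2 difference was 0.14 (SE 0.12, 95% interval -0.13 to 0.42, limma adjusted p = 0.78). It was 0.07 without HdhQ111/Q111 replicate 1 and 0.23 without HdhQ111/Q111 replicate 2.

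Cdkn1a encodes p21, a target of p53 that is induced by DNA damage. Its log2 signal was 10.00, 10.65, 10.00 and 9.95 in HdhQ111/Q111 tumours and 10.16, 10.20, 9.47 and 10.23 in HdhQ7/Q7 tumours. In each group 3 tumours lay close together and 1 stood apart, high in HdhQ111/Q111 replicate 2 and low in HdhQ7/Q7 replicate 3. The means were 10.15 ± 0.34 in HdhQ111/Q111 tumours and 10.01 ± 0.36 in HdhQ7/Q7 tumours (SD, n = 4 each). The log2 difference was 0.14 (SE 0.21, 95% interval -0.35 to 0.63, limma adjusted p = 0.886). It was -0.03 without HdhQ111/Q111 replicate 2 and -0.04 without HdhQ7/Q7 replicate 3, so each of these tumours alone sets its direction.

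The other p53 target genes were read by tumour as well. The mean of the 15 measured p53 targets, each centred on its own mean over the 8 tumours, was 0.03, 0.17, 0.03 and -0.07 in HdhQ111/Q111 tumours and 0.03, -0.03, -0.28 and 0.13 in HdhQ7/Q7 tumours. The highest mean was that of HdhQ111/Q111 replicate 2 and the lowest that of HdhQ7/Q7 replicate 3. Gene by gene, HdhQ7/Q7 replicate 3 was the lowest of the 8 tumours in 9 of the 15, whereas HdhQ111/Q111 replicate 2 was the highest in 4 and the lowest in 1, Pmaip1, and its mean was close to that of HdhQ7/Q7 replicate 4. Between the genotypes 10 of the 15 were higher (8 after quantile normalization or centring of the arrays), none was called, and the median was 0.07. The largest difference was in Zmat3, an RNA-binding target of p53, at 0.34 (SE 0.21, limma adjusted p = 0.71), and it read 8.85 in HdhQ111/Q111 replicate 2, without which the difference was 0.17. The lowest was in Pmaip1, the pro-apoptotic gene of NOXA, which read 6.72, 6.62, 6.68 and 6.80 in HdhQ111/Q111 tumours and 6.88, 7.10, 6.97 and 6.92 in HdhQ7/Q7 tumours. Its groups did not overlap (log2 difference -0.26, SE 0.07, limma adjusted p = 0.518, exact permutation p = 0.0286), in the direction opposite to the median of its list.

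The genes nearest to Cdkn1a in profile were Fbxl20, Mgmt, Ccdc68, Phlda3 and Vmn1r193, at 0.081 to 0.134. Fbxl20, the nearest, read 11.33, 11.81, 11.14 and 11.16 in HdhQ111/Q111 tumours and 11.43, 11.49, 10.83 and 11.58 in HdhQ7/Q7 tumours. Its highest and lowest tumours were those of Cdkn1a.

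Cdkn1b encodes p27. It read 10.47, 10.27, 10.42 and 10.39 in HdhQ111/Q111 tumours and 10.42, 10.30, 10.54 and 10.70 in HdhQ7/Q7 tumours. It was the one gene of the 9 with a difference below 0, at -0.10 (SE 0.10, 95% interval -0.32 to 0.12, limma adjusted p = 0.804). The highest value was in HdhQ7/Q7 replicate 4, and without it the difference was -0.03.

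Cdkn2c spanned 1.22 over the 8 tumours, where Ccnd2 spanned 1.33, and it had the largest standard error of the 9 genes. It read 10.90, 9.93, 10.98 and 9.77 in HdhQ111/Q111 tumours and 9.90, 9.85, 9.80 and 10.58 in HdhQ7/Q7 tumours. Replicates 1 and 3 of HdhQ111/Q111 and replicate 4 of HdhQ7/Q7 were high, and the other 5 tumours lay between 9.77 and 9.93. The means were 10.40 ± 0.63 in HdhQ111/Q111 tumours and 10.03 ± 0.37 in HdhQ7/Q7 tumours (SD, n = 4 each). The log2 difference of 0.36 (SE 0.31, 95% interval -0.35 to 1.08, 1.29-fold) was smaller than the spread among the HdhQ111/Q111 tumours, with a limma adjusted p of 0.782 and an exact permutation p of 0.286. The split did not follow the genotype. Without HdhQ111/Q111 replicate 3 the difference was 0.17 and without HdhQ111/Q111 replicate 4 it was 0.57.

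Of all 14859 genes compared, the one nearest to Cdkn2c in profile was 9630013D21Rik, at a root mean square difference of 0.134, and the next, Cldn2, was at 0.249. In the RefSeq table of GRCm38.p6, 9630013D21Rik is a long non-coding RNA gene directly next to Cdkn2c on chromosome 4. It read 8.72, 7.94, 8.65 and 7.62 in HdhQ111/Q111 tumours and 7.75, 7.44, 7.43 and 8.23 in HdhQ7/Q7 tumours. Its 3 highest tumours were the 3 in which Cdkn2c was high. The genes that followed were Fzd4, Gstz1 and Aldh1a1, at 0.260 to 0.271.

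**Figure D3:**
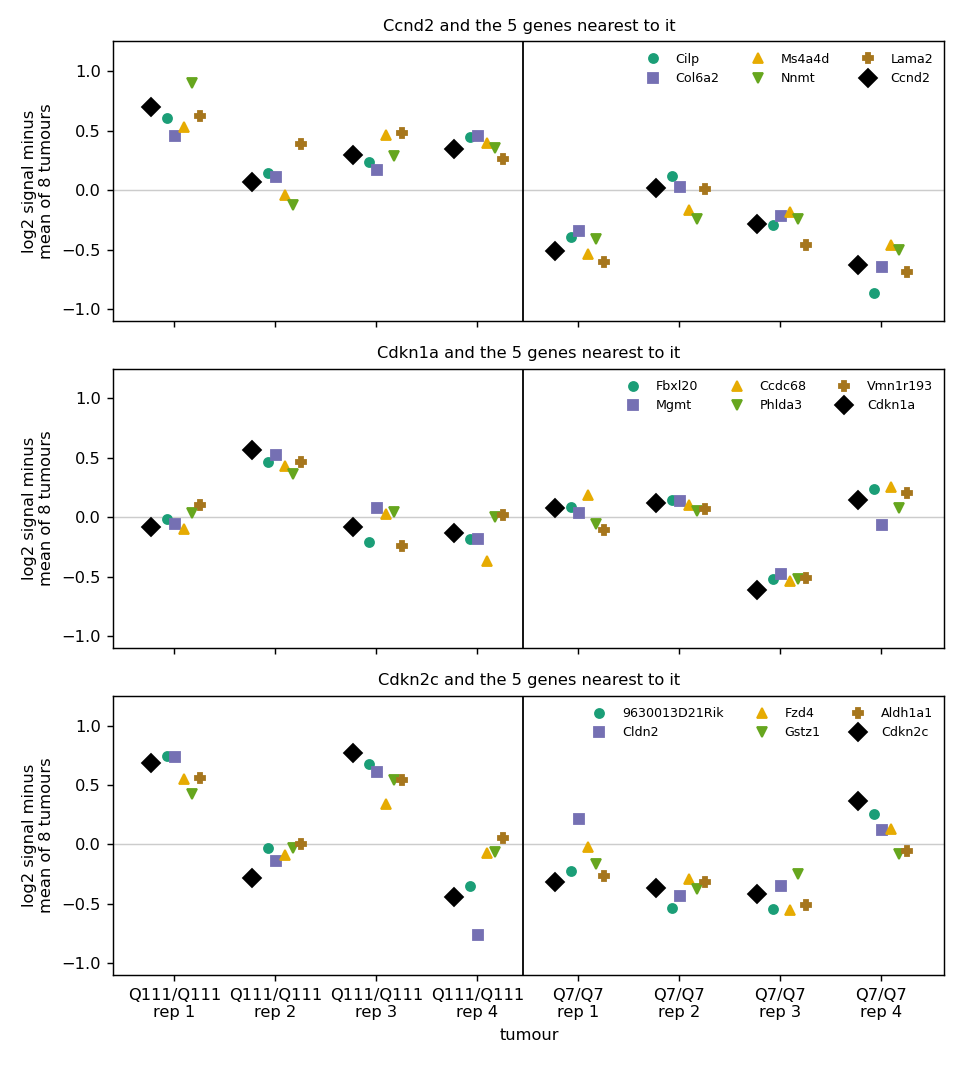
Log2 signal minus the mean of the 8 tumours (y axis) of Ccnd2, Cdkn1a and Cdkn2c (black diamonds) and of the 5 genes nearest to each (coloured symbols), by tumour (x axis), with HdhQ111/Q111 tumours left of the vertical line and HdhQ7/Q7 tumours right of it. The genes were picked for their likeness, so the closeness of the points is a description; Cdkn1a departs in 1 tumour of each genotype, and Cdkn2c is high in 2 HdhQ111/Q111 tumours and 1 HdhQ7/Q7 tumour.

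Rb1, the brake on E2F that cyclin D kinases inactivate, read 11.75, 11.85, 11.48 and 11.57 in HdhQ111/Q111 tumours and 11.82, 11.18, 11.35 and 11.91 in HdhQ7/Q7 tumours. All HdhQ111/Q111 values lay inside the range of the HdhQ7/Q7 values. The log2 difference was 0.10 (SE 0.17, 95% interval -0.30 to 0.49, limma adjusted p = 0.901), and it was -0.03 without HdhQ7/Q7 replicate 2.

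**Figure D4:**
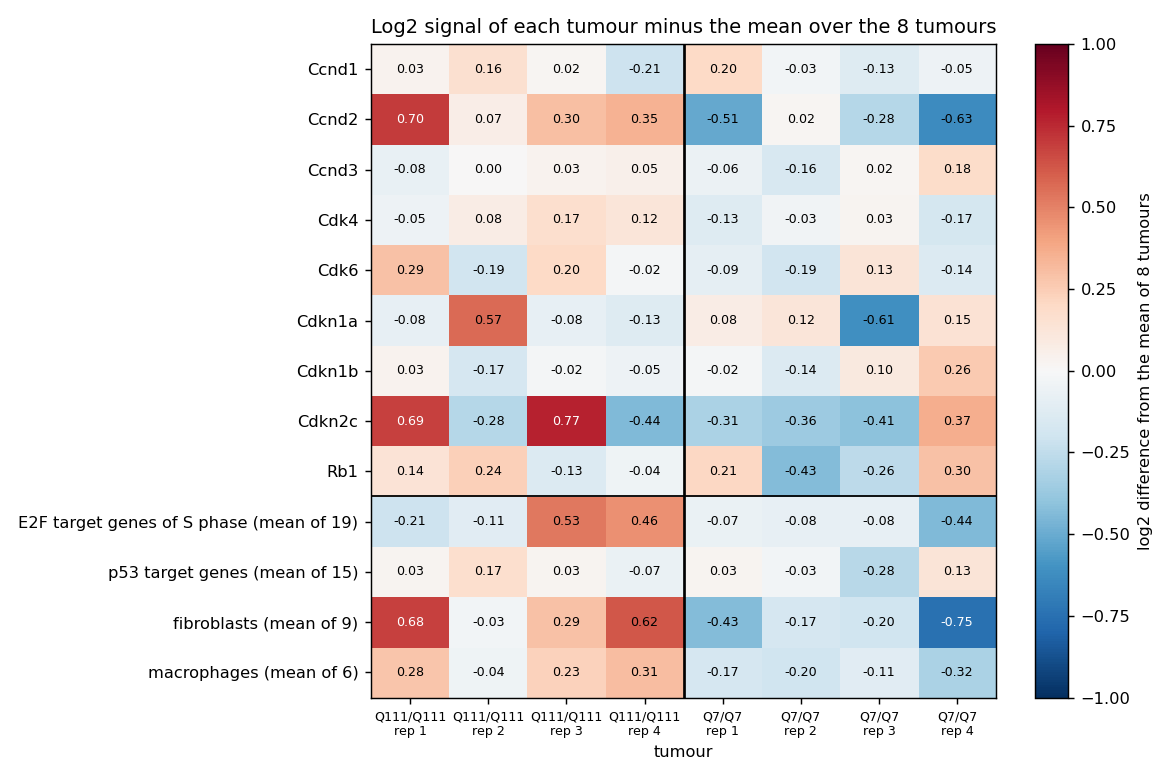
Log2 signal of each tumour (columns, HdhQ111/Q111 left of the line, HdhQ7/Q7 right of it) minus the mean over the 8 tumours, for the 9 genes and, below the horizontal line, for the mean of 4 gene lists; red is above and blue below that mean. HdhQ7/Q7 replicate 4 is below it in Ccnd2, the E2F targets (-0.44) and the fibroblast markers and above it in Cdkn1b, Cdkn2c and Rb1.

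Read by tumour, 5 of the 9 genes had their extreme value in HdhQ7/Q7 replicate 4. This tumour had the highest Ccnd3, Cdkn1b and Rb1 and the lowest Ccnd2 and Cdk4 of all 8. HdhQ7/Q7 replicate 2 had the lowest Ccnd3, Cdk6 and Rb1. The remaining tumours held at most 2 extremes each.

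Downstream of the D cyclins, the listed E2F target genes, here called S phase genes, were uniformly on the higher side, though none met the thresholds. Besides genes of DNA replication, the list holds Mki67, for the proliferation marker Ki67 (difference 0.50), and Ccna2, for cyclin A2 (0.48). All 19 measured of 22 S phase genes had a difference above 0 in HdhQ111/Q111 tumours, also after quantile normalization and with centred arrays, where 56.4%, 45.8% and 36.6% of all probe sets did. The median was 0.34 (0.30 and 0.27 under these scalings), 4 of the 19 had an unadjusted limma p under 0.05, against 7.88% of all probe sets, and none an adjusted p under 0.05. The mean of the list, each gene centred over the 8 tumours, was -0.21, -0.11, 0.53 and 0.46 in HdhQ111/Q111 tumours and -0.07, -0.08, -0.08 and -0.44 in HdhQ7/Q7 tumours. Replicates 3 and 4 of HdhQ111/Q111 were high, HdhQ7/Q7 replicate 4 was low, and the other 5 tumours of both genotypes were close together, so the groups overlapped. HdhQ111/Q111 replicate 1, the tumour with the highest Ccnd2, was not among the high ones.

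The S phase gene with the largest difference was Gins1, a subunit of the replicative helicase, at 0.57 (SE 0.23, limma adjusted p = 0.617). It read 7.00, 7.21, 7.99 and 7.68 in HdhQ111/Q111 tumours and 7.04, 7.04, 7.02 and 6.48 in HdhQ7/Q7 tumours. The smallest was that of Orc1, which loads the helicase at origins, at 0.18 (SE 0.21, limma adjusted p = 0.837), and it was 0.05 without HdhQ111/Q111 replicate 4 and 0.32 without HdhQ111/Q111 replicate 1. In both genes the 2 highest tumours were replicates 3 and 4 of HdhQ111/Q111.

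Of the cyclin E and CDK2 group, which completes the phosphorylation of Rb, 5 of 7 measured genes (8 listed) were higher, none was called, and the median was 0.18. Cks2, counted as not higher, read only 3.54 to 3.93, at percentile 4.31 of mean signal, where a difference tells little. Ccne1, for cyclin E1, read 8.01, 8.09, 8.90 and 8.87 in HdhQ111/Q111 tumours and 8.02, 8.13, 8.07 and 7.56 in HdhQ7/Q7 tumours. Its high tumours were again replicates 3 and 4 of HdhQ111/Q111, and its difference was 0.52 (SE 0.24, limma adjusted p = 0.634). Fbxw7, the ubiquitin ligase subunit that marks cyclin E for destruction, had the lowest difference of the group, -0.04 (SE 0.11, limma adjusted p = 0.943).

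In the Rb and E2F family 7 of 10 measured genes (12 listed) were higher, none was called, and the median was 0.10. E2f7, a repressor among the E2F factors, had the largest difference, 0.39 (SE 0.15, limma adjusted p = 0.617). Rbl2, for the Rb relative p130, had the lowest, -0.08 (SE 0.13, limma adjusted p = 0.893). E2f1, which a heat map of the study shows from these same arrays and which was picked here after its values had been seen, read 8.39, 8.60, 8.94 and 8.61 in HdhQ111/Q111 tumours and 8.54, 8.37, 8.25 and 8.10 in HdhQ7/Q7 tumours. In 3 HdhQ111/Q111 tumours it was above every HdhQ7/Q7 tumour, and its difference was 0.32 (SE 0.14, limma adjusted p = 0.63).

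**Figure D5:**
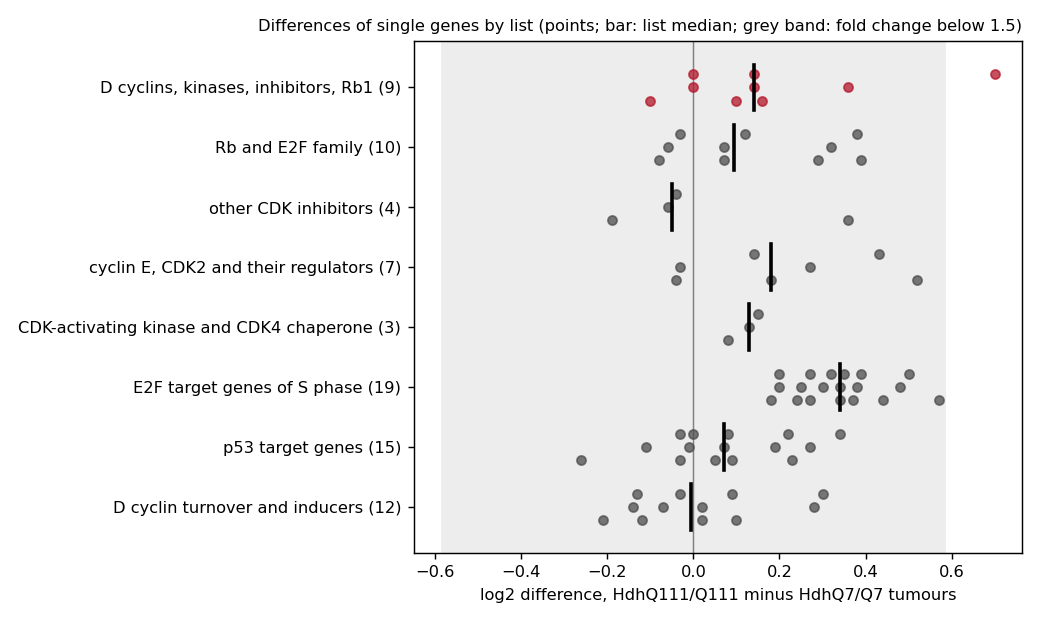
Log2 difference between genotypes (x axis, HdhQ111/Q111 minus HdhQ7/Q7, n = 4 tumours each) of every measured gene of the 9 genes (red) and of the 7 pathway lists (grey), with the number of measured genes in brackets and the list median as a black bar; the height of points within a row carries no value. All 19 S phase genes lie right of 0, between 0.18 and 0.57, and Ccnd2 is the one point outside the grey band of fold changes below 1.5.

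Among the other CDK inhibitors 1 of 4 measured genes (5 listed) was higher, none was called, and the median was -0.05. Cdkn3, a phosphatase that acts on CDK2, had a difference of 0.36 (SE 0.18, limma adjusted p = 0.652). Cdkn2b, for the INK4 protein p15, had one of -0.19 (SE 0.11, limma adjusted p = 0.699). For the CDK-activating kinase and the CDK4 chaperone, 3 of 3 measured genes (4 listed) were higher with a median of 0.13. Mnat1, the assembly factor of that kinase, did not overlap between the genotypes, with 8.45, 8.46, 8.61 and 8.50 in HdhQ111/Q111 tumours and 8.27, 8.38, 8.43 and 8.35 in HdhQ7/Q7 tumours. Its difference was 0.15 (SE 0.07, limma adjusted p = 0.639, exact permutation p = 0.0286), and that of Cdc37, the chaperone partner that loads CDK4 onto HSP90, was 0.08 (SE 0.06, limma adjusted p = 0.765).

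Of the genes that induce D cyclins or control their turnover, 6 of 12 were higher (4 of 12 after quantile normalization or centring), none was called, and the median was 0.00. Myc, a transcription factor that acts on Ccnd2 and Cdk4, read 10.90, 10.43, 10.83 and 10.88 in HdhQ111/Q111 tumours and 10.34, 10.76, 10.25 and 10.49 in HdhQ7/Q7 tumours. It was above every HdhQ7/Q7 tumour in 3 HdhQ111/Q111 tumours and low in replicate 2 (difference 0.30, SE 0.14, limma adjusted p = 0.642). In HdhQ111/Q111 replicate 2, Ccnd2 was also lowest of its group, but Cdk4 was not. HdhQ111/Q111 replicate 1 had the highest Myc and the highest Ccnd2 of all tumours, and HdhQ7/Q7 replicate 2 the highest of both in its group. HdhQ7/Q7 replicate 4, which had the lowest Ccnd2 of all tumours, was above replicates 1 and 3 of its group in Myc. The lowest Myc was in HdhQ7/Q7 replicate 3, which did not have the lowest Ccnd2. A link between these genes was not tested. Foxo1, a factor that represses D cyclins when growth signalling is low, had the lowest difference, -0.21 (SE 0.09, limma adjusted p = 0.627). Over the 7 lists, 70 of 80 genes were measured, 51 of them had a difference above 0 (56.4% of all probe sets did), 9 had an unadjusted p under 0.05 (7.88% of all) and none was called. The genotypes did not overlap in 2 of the 70, against 4.43% of all probe sets.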

How the data were processed

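Labels give 4 tumours of each genotype, 1 array per tumour. The deposited table holds log2 signals per probe set. The probe group and meta-probe set files named in the labels refer to mm9, and the normalization behind the table is not stated in the labels or the methods. For their own gene analysis the authors' methods name quantile normalization and background correction with antigenomic probes. Array medians differed by 0.16, under the limit of 0.2 set for further normalization, so values were used as deposited. Of 23332 probe sets, 14996 had 1 gene symbol in the platform annotation, 1019 several and 7317 none. Only those with 1 symbol were named, and a gene was represented by its probe set of highest mean. Precision is limited by the number of arrays.

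A linear model of genotype was fitted with limma 3.58.1 (R 4.3.3, lmFit and eBayes, no trend, not robust, two-sided), and p-values were adjusted after Benjamini and Hochberg over all probe sets. The fit was tested on simulated data. Exact permutation tests ran over all 70 labellings. Intervals are 95% limma intervals. Figures used matplotlib 3.10.9 (Python 3.11.15). Genes and lists were chosen with earlier results of these data known, so list counts carry no test. Named were the 9 genes, in each pathway list any called gene and those of highest and lowest difference, and the 5 nearest profiles of members spanning at least 1 on the log2 scale. As alternatives, limma was run with array weights, with a robust variance trend, with a replicate block, after quantile normalization, after centring on array medians and without the dimmest 40% of probe sets. Further alternatives were the methods' t-test, leaving out each tumour in turn, keeping single-symbol probe sets with each gene tested once, and a fold threshold of 2. Of the listed genes, 10 pathway genes without a single-symbol probe set were not used. Promoters came from a RefSeq table of GRCm38.p6.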

Additional observations from a re-analysis of the deposited data

Results flagged for a closer look

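Within a group of 4 tumours, a tumour was marked when its gap to the nearest other was too large a part of the group's range by Dixon's 95% critical value. Over 46 such comparisons in 23 genes there were 5 marks, and chance gives about 1 in 20. Cdkn1a was marked in both groups. HdhQ111/Q111 replicate 2 read 10.65 where the others read 9.95 to 10.00 (ratio 0.918), and HdhQ7/Q7 replicate 3 read 9.47 where the others read 10.16 to 10.23 (ratio 0.911). Cdkn2c read 10.58 in HdhQ7/Q7 replicate 4, against 9.80 to 9.90 in the others of that group (ratio 0.873). Gins1 read 6.48 in HdhQ7/Q7 replicate 4, against 7.02 to 7.04 in the others (ratio 0.965). Myc read 10.43 in HdhQ111/Q111 replicate 2, against 10.83 to 10.90 in the others (ratio 0.856).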

How the results depend on the processing

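Ccnd2 kept its direction and its call under all 16 alternatives at the fold threshold of 1.5, and at a threshold of 2 the calls numbered 0 among the 9 genes and 71 over all probe sets. Over all probe sets the calls were 317, and 184 with the dimmest 40% left out and 181 with each gene once, where fewer probe sets were tested. The calls higher and lower in HdhQ111/Q111 tumours were 238 and 79 (75.1% higher), but 166 and 121 (57.8%) with centred arrays and 187 and 93 (66.8%) after quantile normalization, where the median of all probe sets was -0.05 and -0.01, against 0.02 as deposited. The number of probe sets with an adjusted p under 0.05 was 3, and 0 with the replicate block, 0 with the methods' t-test and 5 with each gene once. Leaving out single tumours it was 0 to 3, and the cause was not tested. The difference of Ccnd1 reversed with array weights (-0.007), centred arrays (-0.064) and quantile normalization (-0.026), and that of Ccnd3 with centred arrays (-0.064) and quantile normalization (-0.033). Leaving out single tumours, Ccnd1 ranged between -0.051 and 0.073, Ccnd3 between -0.048 and 0.067, Cdkn1a between -0.042 and 0.21, Rb1 between -0.032 and 0.21 and Fbxw7 between -0.10 and 0.063. Without HdhQ7/Q7 replicate 4, Rbl2 was at 0.00 and Cdkn2b at -0.10. Ccne1 and Gins1 came past the thresholds when some single tumours were left out, at differences of up to 0.67 and 0.73. Of 144 values of the 9 genes under the alternatives 18 reversed, and of 222 values of the other genes 1 reversed. Same-numbered tumours did not deviate together (correlations of deviations across probe sets of 0.0295, -0.0882, 0.0232 and -0.189). These values cannot settle whether the numbers pair the tumours. With the replicate block the calls over all probe sets were 332. A mean over several probe sets of a gene gave no value, as each of the 9 has 1. The number of arrays limits the precision, and the 95% interval of Cdkn2c ran between -0.35 and 1.08.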
